A study of Macaca mulatta with 12 samples.

Results

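The genes SFPQ, LPCAT4, CD47, ELFN2, EXOC3L1, YPEL5, KCTD6 and DCLK2 were followed across hormone treatments in the dorsal raphe of rhesus monkeys. These 8 genes were chosen, from 12993 named genes on the array, because 1 probe set of each had its lowest signal in monkeys given progesterone without estrogen. The probe-to-gene table assigned 21 of the array's 52766 non-control probe sets to them, and no probe set carried a member's name beside that of another gene. CD47 had 5 probe sets, SFPQ, LPCAT4 and YPEL5 had 3 each, ELFN2, EXOC3L1 and KCTD6 had 2 each, and DCLK2 had 1. Of the 21, 17 were bright enough to be tested, with at least 1 in each gene.

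The samples were blocks of the dorsal raphe, a main site of serotonin neurons in the brainstem, from 12 female rhesus monkeys, each hybridised to its own Affymetrix rhesus array. The 4 groups of 3 animals had received, for 1 month, capsules under the skin holding placebo, estrogen, progesterone, or estrogen and progesterone together. The code OVX in the placebo titles was read as ovariectomized; the titles of the hormone groups do not carry it, and age, dose and estrogen compound are not given in the sources used here. The progesterone arrays carry EP in their titles and P in their descriptions, so their assignment to progesterone alone rests on the treatment word in the title and on the description.

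Progesterone acts on gene expression mainly through the progesterone receptor, a hormone-activated transcription factor, and in many tissues estrogen raises the amount of that receptor. Progesterone with and without estrogen are therefore different hormonal settings. The 8 genes belong to no single pathway. SFPQ binds RNA in the nucleus, acts in splicing and is a core component of paraspeckles, LPCAT4 remodels the phospholipids of membranes, CD47 is a surface protein that restrains phagocytosis through SIRPA, and ELFN2 is a synaptic leucine-rich repeat protein that binds metabotropic glutamate receptors. EXOC3L1 resembles a subunit of the exocyst, which tethers secretory vesicles, YPEL5 is a small zinc-binding protein found with the CTLH ubiquitin ligase, KCTD6 is an adaptor of cullin 3 ubiquitin ligases, and DCLK2 is a microtubule-binding kinase of the doublecortin family.

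Values of single probe sets are log2 intensities after quantile normalization unless another scaling is named. The exceptions are the 3′ minus 5′ signals of controls, which were removed before normalization, and the summed marker intensities, which are linear. Each difference between groups is a log2 difference with the SE of a limma fit over the 12 arrays, so that -1 stands for a signal lowered to 50%. The lead probe set of a gene is the tested one with the lowest p for progesterone against placebo. The members were chosen on these data for being low under progesterone and not under the other treatments, so their group levels are a description without a test of their own. With 1 lead probe set per gene, the median of the 8 differences between progesterone and placebo was -1.06, with a range from -1.41 to -0.84, beside a median of -0.02 over all 26383 probe sets tested. In a tissue block, fewer cells of a type and less RNA per cell cannot be told apart.

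SFPQ had the largest difference. Its lead probe set, MmugDNA.24480.1.S1_at, read 8.98, 9.11 and 9.10 in the placebo animals and 7.79, 7.57 and 7.59 under progesterone. Under estrogen alone it read 8.41, 8.26 and 8.40, and under both hormones 8.59, 9.26 and 8.36. The progesterone arrays were the lowest, but the estrogen arrays also lay below every placebo array, so the signal was not low in the progesterone group alone. The differences from placebo were -1.41 ± 0.20 (SE, n = 3 per group) under progesterone, which is 2.66-fold lower, and -0.71 ± 0.20 under estrogen, with 95% confidence intervals from -1.86 to -0.97 and from -1.16 to -0.26. With both hormones the difference was -0.33, with an interval from -0.78 to 0.12. The second array of the combined treatment decided that value: it stood above all placebo arrays, and without it the difference was -0.59 ± 0.16.

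LPCAT4, which adds fatty acyl chains back to lysophospholipids, had the widest separation. Its lead probe set, MmugDNA.6398.1.S1_at, read 8.01, 7.97 and 8.10 under placebo, 8.21, 8.14 and 7.88 under estrogen, 8.30, 7.84 and 8.24 under both hormones, and 7.09, 6.91 and 6.81 under progesterone. The 9 arrays outside the progesterone group overlapped one another, and the lowest of them stood 0.76 above the highest progesterone array, against 0.16 to 0.59 for the other lead probe sets. Progesterone differed from placebo by -1.09 ± 0.16, and the combined treatment by 0.10, with an interval from -0.26 to 0.46.

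CD47 is also a receptor for thrombospondin. Its lead probe set, MmugDNA.36982.1.S1_s_at, read 9.50, 9.75 and 9.39 under placebo, 9.08, 9.09 and 9.28 under estrogen, 9.22, 9.02 and 8.86 under both hormones, and 8.70, 8.48 and 8.32 under progesterone. All 9 hormone-treated arrays lay below all 3 placebo arrays, with progesterone at the bottom and only 0.16 between its highest array and the lowest other one. All 3 combined arrays below placebo were found in 5.84% of the tested probe sets, and all 3 estrogen arrays below placebo, which SFPQ, CD47 and DCLK2 had, in 3.98%. The differences from placebo were -1.05 ± 0.16 under progesterone, -0.40 under estrogen (interval from -0.76 to -0.04) and -0.52 under both hormones (interval from -0.88 to -0.16).

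ELFN2 was the synaptic gene of the 8. Its lead probe set, MmugDNA.43420.1.S1_at, read 7.13, 7.43 and 7.52 under placebo, 7.63, 7.29 and 8.02 under estrogen, 7.96, 7.87 and 7.78 under both hormones, and 6.58, 6.01 and 6.26 under progesterone. Every array of the combined treatment lay above every placebo array, as in 4.68% of the tested probe sets. The difference from placebo was -1.08 ± 0.21 under progesterone, and 0.51 under both hormones, with an interval from 0.05 to 0.97. Between the progesterone groups with and without estrogen the difference was 1.59 ± 0.21, a 3.00-fold higher signal with estrogen.

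EXOC3L1 was the dimmest of the lead probe sets. MmugDNA.31252.1.S1_at read 6.84, 6.48 and 6.84 under placebo, 6.99, 7.25 and 7.15 under estrogen, 6.83, 6.97 and 7.10 under both hormones, and 6.07, 5.93 and 5.64 under progesterone. All 3 estrogen arrays lay above the placebo range, as in 3.56% of the tested probe sets. The differences from placebo were -0.84 ± 0.17 under progesterone, 0.41 under estrogen (interval from 0.04 to 0.78) and 0.25 under both hormones (interval from -0.12 to 0.62).

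The ubiquitin ligase partners YPEL5 and KCTD6 had placebo, estrogen and combined arrays that overlapped. On its lead probe set YPEL5 read 9.97, 9.77 and 10.08 under placebo, 9.83, 9.79 and 9.64 under estrogen, 10.13, 9.63 and 9.79 under both hormones, and 8.92, 8.59 and 9.08 under progesterone. Progesterone differed from placebo by -1.08 ± 0.18. KCTD6, on MmuSTS.1600.1.S1_at, read 7.43, 7.30 and 7.85 under placebo, 7.86, 7.67 and 7.35 under estrogen, 7.55, 7.62 and 7.48 under both hormones, and 6.62, 6.71 and 6.28 under progesterone, a difference from placebo of -0.99 ± 0.19. For both genes the progesterone arrays stood apart, by 0.55 for YPEL5 and 0.59 for KCTD6, while the other 9 mixed.

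DCLK2, known mainly from neurons, has a single probe set, MmugDNA.41172.1.S1_at. It read 9.32, 9.83 and 9.50 under placebo, 9.19, 9.14 and 9.25 under estrogen, 9.38, 9.26 and 9.71 under both hormones, and 8.18, 8.90 and 8.45 under progesterone. The estrogen arrays lay below the placebo range here as well, at a difference of -0.36 with an interval from -0.81 to 0.10. Progesterone differed from placebo by -1.04 ± 0.21, with the widest spread among progesterone animals of the 8 lead probe sets (SD 0.36, n = 3).

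**Figure D1:**
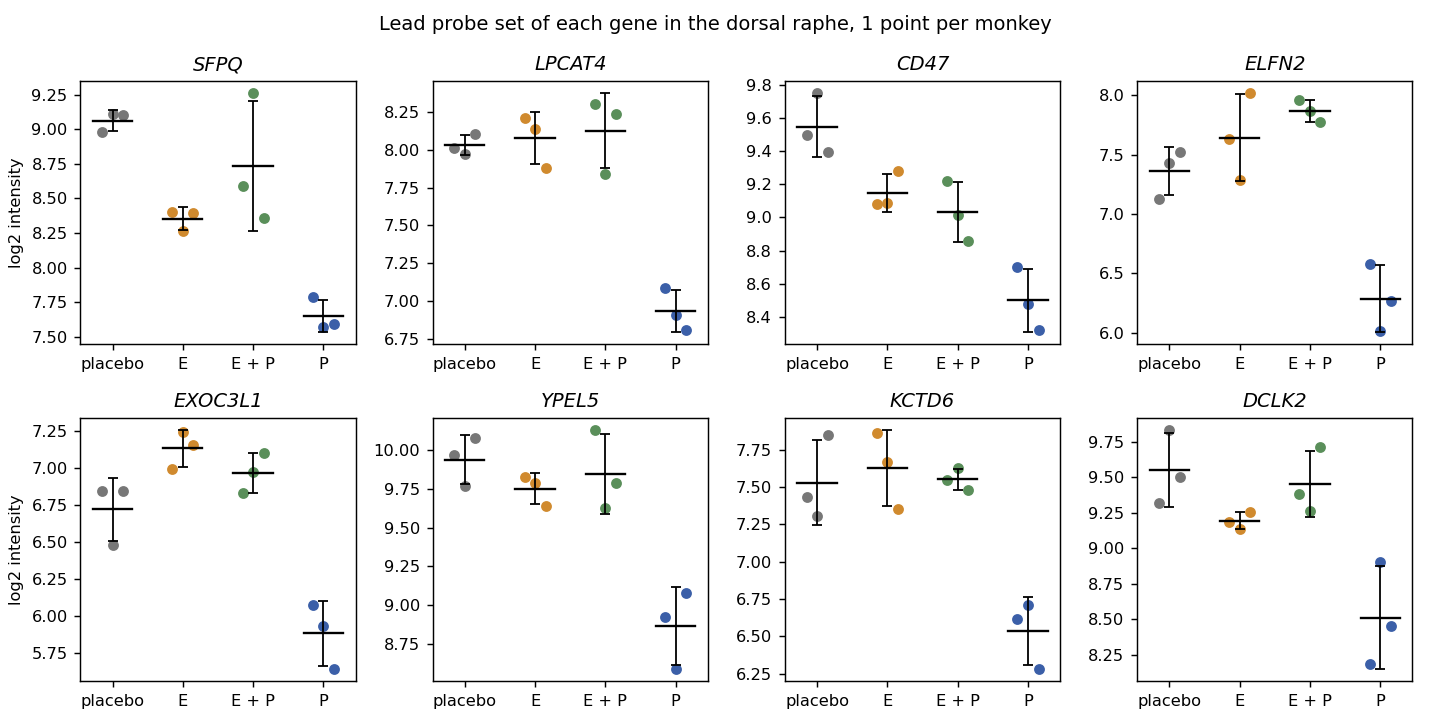
Log2 intensity (vertical axis, own scale in each panel) of the lead probe set of each gene, with 1 point per monkey in the placebo, estrogen (E), estrogen plus progesterone (E + P) and progesterone (P) groups; the long bar is the group mean and the whisker 1 SD (n = 3). The 3 progesterone points lie below the other 9 in all 8 panels, and for SFPQ, CD47 and DCLK2 the estrogen points also lie below the placebo points.

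On all 8 lead probe sets the 3 progesterone arrays lay below all 9 others, a pattern that 2.07% of the tested probe sets had and that the choice of members fixed. The same held with median alignment, with the authors' scaling alone and with a higher floor. By limma with Benjamini-Hochberg adjustment over all tested probe sets, 3 of the 8 passed an adjusted p of 0.05 as lower under progesterone than under placebo, beside 0.0152% of all tested probe sets: SFPQ (adjusted p = 0.0253), LPCAT4 (0.0307) and CD47 (0.0381). YPEL5 stood just outside at 0.0512, and KCTD6, ELFN2, EXOC3L1 and DCLK2 followed at 0.0912, 0.0914, 0.0982 and 0.0982. These are the values that chose the members and are given as such. The 3 calls were marginal in limma: leaving out the first or second placebo array, or any 1 progesterone array, ended each of them, as leaving out placebo replicate 3 did for SFPQ and LPCAT4, and over all alternatives the adjusted p ran from 0.0102 to 0.134 for SFPQ, from 0.0284 to 0.147 for LPCAT4 and from 0.0301 to 0.257 for CD47. With only the arrays of both groups, with no filter, and with a replicate block the 3 were not called either (adjusted p from 0.0571 to 0.0759 with the block). The lower genes that come next in the same ordering are MRPL30 (-1.44, adjusted p = 0.0935), a mitochondrial ribosomal protein that precedes some members, ZNF41 (-1.01, 0.107), FUT8 (-1.03, 0.113), a fucosyltransferase, ST6GALNAC2 (-1.46, 0.115), a sialyltransferase, and CPLX2 (-0.67, 0.130), a complexin of synaptic vesicle release.

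Whether estrogen restored the placebo level was read from the combined treatment minus placebo. The members were chosen for not being low under this treatment, so the choice itself favours a level near placebo or above it. The median over the 8 lead probe sets was -0.03, beside -0.01 over all probe sets tested, and the 95% interval held 0 for 6 of them, as it did for 96.1% of all tested probe sets. LPCAT4, KCTD6, YPEL5 and DCLK2 were nearest to placebo, at 0.10, 0.02, -0.09 and -0.10, with intervals that reached no farther than -0.55 and 0.46. For EXOC3L1 and SFPQ the interval also held 0 but was compatible with a level above placebo (up to 0.62) and with one well below it (down to -0.78). An interval that holds 0 does not show that the level was that of placebo.

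The 2 exceptions went opposite ways. CD47 stayed below placebo with both hormones: the combined mean covered 50.8% of the distance from the progesterone mean back to the placebo mean, and the interval excluded 0 in each of the 12 fits that left out 1 array. ELFN2 passed beyond placebo, to 147% of that distance, but its interval held 0 in 4 of those 12 fits. The others lay between 76.9% (SFPQ) and 130% (EXOC3L1). In none of the 8 did combined treatment and placebo differ by the limma test, which called 0 of 26383 probe sets in that contrast (1017 had an unadjusted p under 0.05).

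**Figure D2:**
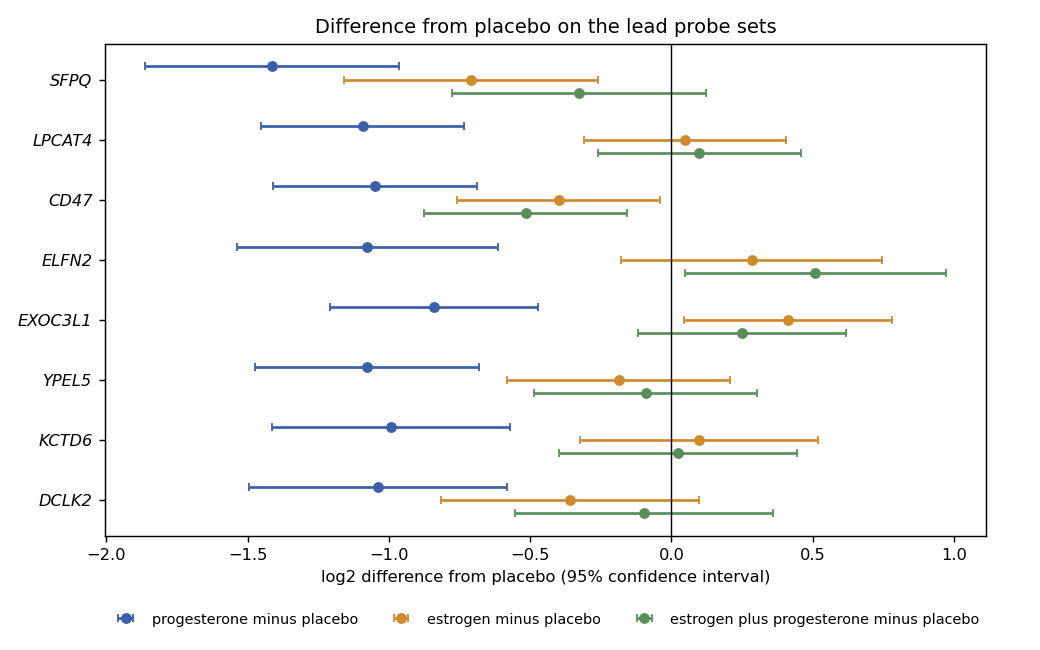
Log2 difference from placebo (horizontal axis) with its 95% confidence interval for the lead probe set of each gene, under progesterone, estrogen, and estrogen plus progesterone (n = 3 per group). All 8 progesterone intervals lie below 0; the combined intervals hold 0 except for CD47, below, and ELFN2, above.

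Set directly against progesterone alone, the combined treatment was higher on all 8 lead probe sets, with all 3 combined arrays above all 3 progesterone arrays (8.4% of tested probe sets had this). The median difference was 1.05 and the range from 0.53 (CD47) to 1.59 (ELFN2). In limma 3 passed as higher, beside 0.0152% of the tested probe sets: ELFN2 (adjusted p = 0.0182), LPCAT4 (0.0218) and EXOC3L1 (0.0462). Leaving out progesterone replicate 2 or 3, or any 1 combined array, ended each of these calls. Other single arrays ended some of them as well: of 12 fits without 1 array, ELFN2 kept its call in 7, LPCAT4 in 5 and EXOC3L1 in 2. Over all alternatives the limma adjusted p ran from 0.0178 to 0.109 for ELFN2, from 0.0217 to 0.144 for LPCAT4 and from 0.0274 to 0.203 for EXOC3L1. Estrogen alone stood above progesterone alone on all 3 arrays for all 8 genes too (7.45% of tested probe sets), with a median difference, progesterone minus estrogen, of -0.99; LPCAT4, ELFN2 and EXOC3L1 passed there as well (limma adjusted p = 0.0286, 0.0367 and 0.0201, beside 0.0227% of tested probe sets called lower). These comparisons and the one with placebo share the progesterone arrays, so their values are given side by side and not as separate evidence. The interaction, which is the progesterone difference with estrogen minus that without it, had a median of 1.16 over the lead probe sets (range 0.68 to 1.80). The choice of members favours such values. Limma called 0 of 26383 probe sets for the interaction (lowest adjusted p = 0.211, 1688 at an unadjusted p under 0.05). SFPQ stood at 0.241, LPCAT4 at 0.439 and CD47 at 0.655.

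Combined treatment and estrogen alone lay closer together. The median difference between them, combined minus estrogen, was 0.07, with a range from -0.16 (EXOC3L1) to 0.38 (SFPQ), and the interval held 0 in all 8 genes, as in 97% of all tested probe sets. With the replicate number as a block, which pairs these groups, it also held 0 in all 8. The difference within each number had 1 sign for EXOC3L1 (-0.16, -0.27 and -0.05) and DCLK2 (0.20, 0.13 and 0.46) and mixed signs for the other 6. Against placebo, estrogen alone had a median of -0.07 and a wider range, from -0.71 (SFPQ) to 0.41 (EXOC3L1). Its interval excluded 0 for SFPQ, CD47 and EXOC3L1, whereas it held 0 in 97.4% of all tested probe sets; limma called 0 of 26383 probe sets in that contrast, with 699 at an unadjusted p under 0.05. Without single arrays the SFPQ interval excluded 0 in 12 of 12 fits, and those of CD47 and EXOC3L1 in 9 of 12. The order of the group means therefore differed between genes above the progesterone level. Placebo was highest for SFPQ, CD47, YPEL5 and DCLK2, the combined treatment for LPCAT4 and ELFN2, and estrogen for EXOC3L1 and KCTD6.

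The other 13 probe sets of the same genes gave a mixed picture in size more than in direction. The progesterone mean lay below the placebo mean on 12 of the 13, and on 8 of the 9 tested, beside 53.3% of all tested probe sets. The median difference over the 9 was -0.16. For 5 of the 7 genes with several probe sets, the lead was not the brightest one. Over the brightest probe set of each gene, the median difference between progesterone and placebo was -0.41, beside -1.06 over the lead probe sets, and 1 of 8 lay above 0. None of the 9 others that were tested had its 3 progesterone arrays below all 9 other arrays, and 4 of them had these below all 3 placebo arrays (7.86% of tested probe sets had this). All these probe sets share the animals and arrays of the lead, so they are not independent samples.

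SFPQ was read at a mean of 9.84 by its brightest probe set, MmugDNA.18770.1.S1_at, where placebo gave 10.02, 9.93 and 9.99 and progesterone 10.14, 9.57 and 9.73. The first progesterone array was the highest of all 12, and the difference was -0.16 with an interval from -0.54 to 0.21, which does not reach the -1.41 of the lead; without the first progesterone array the difference was -0.33. The dimmest probe set, MmugDNA.11087.1.S1_s_at, was below the test's filter and followed the lead, with progesterone at 5.68, 5.58 and 5.95 beside 6.37, 6.11 and 6.50 under placebo (-0.59 ± 0.18).

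For CD47, the name of the lead, MmugDNA.36982.1.S1_s_at, differs from that of the brightest probe set, MmugDNA.36982.1.S1_at, only in the letter s. In Affymetrix naming the s marks probes shared by several transcripts. The brightest probe set read 9.90, 10.28 and 10.05 under placebo, 9.79, 9.36 and 9.88 under progesterone, and 9.21, 9.66 and 9.39 under both hormones, so that here the combined treatment was lowest, at -0.66 from placebo (interval from -1.19 to -0.13), and progesterone stood at -0.40 (interval from -0.94 to 0.13), or -0.25 without its second array. MmugDNA.12247.1.S1_at, nearly as bright, gave -0.02 for progesterone, with an interval from -0.40 to 0.36. MmuSTS.1850.1.S1_at gave -1.64 with a wide interval, from -2.91 to -0.37, and its arrays ran from 7.05 to 8.96 under placebo and from 6.75 to 8.88 under both hormones. The fifth, MmugDNA.42666.1.S1_at, was too dim to test and gave -1.11, which shrank to -0.26 without the second progesterone array.

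YPEL5 was bright on all 3 of its probe sets, and 2 of them barely differed between groups. MmuSTS.2593.1.S1_at, the brightest at a mean of 10.82, read 10.7853, 10.8551 and 10.9083 under placebo and 10.8707, 10.9973 and 10.6022 under progesterone, a difference of -0.03 with an interval from -0.36 to 0.31. MmugDNA.28335.1.S1_at gave -0.15, with an interval from -0.42 to 0.13. There all 3 progesterone arrays lay below all 3 placebo arrays, as in 7.86% of tested probe sets, and progesterone had the lowest group mean. Median alignment moved the differences of the 2 probe sets to -0.19 and -0.31, and all probe sets tested from a median of -0.02 to -0.12. Neither interval reached the -1.08 of the lead.

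KCTD6 likewise split. Its brighter probe set, MmugDNA.9856.1.S1_at, read 8.17, 7.86 and 8.12 under placebo and 8.05, 8.33 and 8.05 under progesterone, a difference of 0.09 with an interval from -0.26 to 0.45, or -0.01 with median alignment. EXOC3L1's second probe set, MmugDNA.1471.1.S1_at, was too dim to test and gave -0.10 with an interval from -1.04 to 0.83, wide enough to hold the lead's value.

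In LPCAT4 and ELFN2 both tested probe sets were lower under progesterone with intervals that excluded 0. For LPCAT4, MmugDNA.36504.1.S1_at read 7.28, 7.22 and 7.49 under placebo and 6.83, 6.58 and 6.94 under progesterone, without overlap, a difference of -0.55 (interval from -1.07 to -0.03), and 0.08 under the combined treatment. The dimmest one, below the filter, gave -1.35 with an interval from -2.93 to 0.24, and -0.84 without the third placebo array. For ELFN2, MmugDNA.18976.1.S1_s_at, brighter than the lead at a mean of 8.90, read 8.77, 9.08 and 8.92 under placebo and 8.87, 8.18 and 8.49 under progesterone, a difference of -0.41 (interval from -0.80 to -0.03), with the combined treatment 0.15 above placebo; without the second progesterone array the first value was -0.25. On the second tested probe set of each gene the difference was smaller than on the lead.

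**Figure D3:**
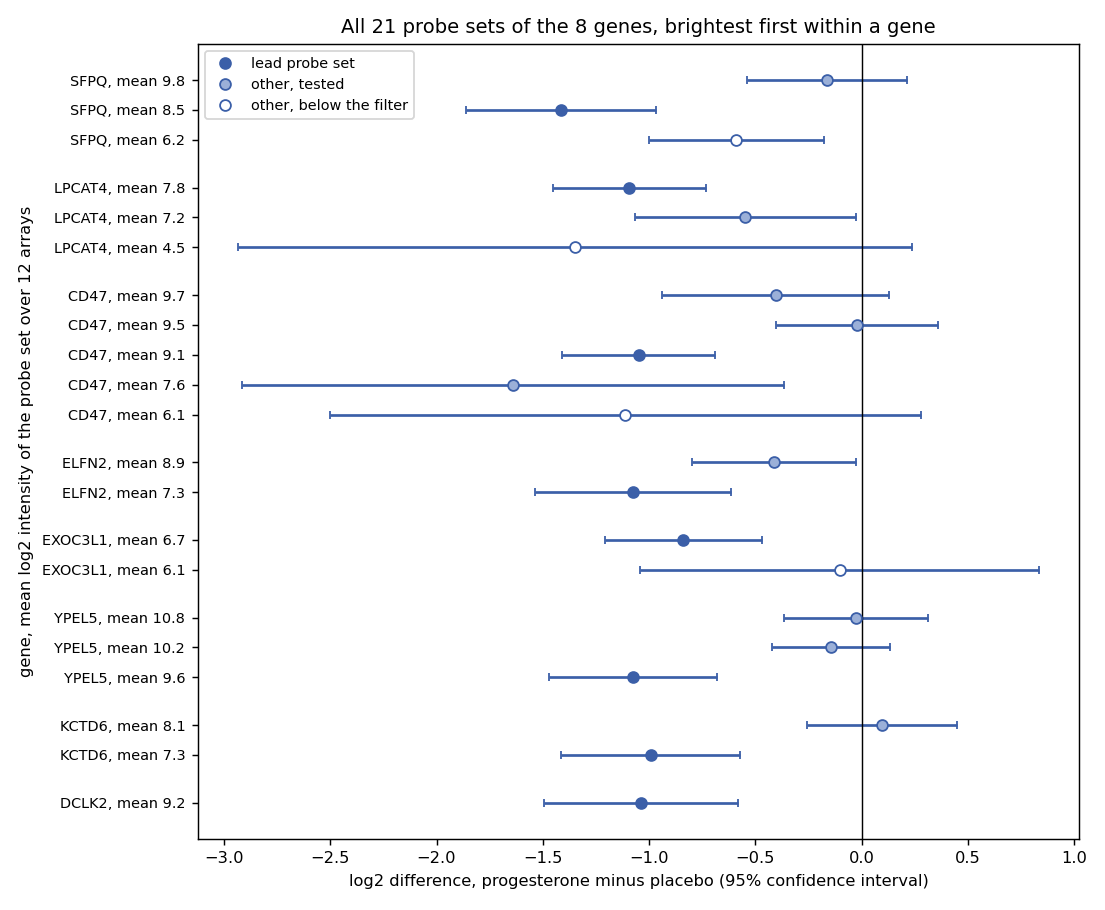
Log2 difference between progesterone and placebo (horizontal axis) with its 95% confidence interval for all 21 probe sets, grouped by gene with the brightest first; the number beside each gene is the mean log2 intensity of that probe set over 12 arrays. Filled points are lead probe sets, pale points other tested ones and open points those below the filter; the brightest probe sets of SFPQ, CD47, YPEL5 and KCTD6 have intervals that hold 0.

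The lead probe sets differed in shape as well as level. The root mean square difference between their profiles over 12 arrays, each centred on its placebo mean, was smallest for LPCAT4 with KCTD6 (0.19) and LPCAT4 with YPEL5 (0.21), and largest for SFPQ with EXOC3L1 (0.74) and SFPQ with ELFN2 (0.71). Averaged over the 8, the profile stood at -0.97, -1.08 and -1.16 in the progesterone arrays and between -0.14 and 0.08 in the other 9. LPCAT4 lay nearest to that average (0.15) and SFPQ farthest (0.43).

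Among the named genes outside the 8, those whose profile lay nearest to that average over the 12 arrays were PRDM8 (0.20), a PRDM family transcriptional regulator, CAMK2B (0.21), the beta subunit of calcium/calmodulin-dependent kinase II, AFAP1L2 (0.22), an actin-associated adaptor, RUSC2 (0.22) and FAM168A (0.22). The median of this difference was 0.61 over all 26383 tested probe sets, and its first percentile 0.33. CAMK2B read 10.58, 10.55 and 10.60 under placebo and 10.15, 9.53 and 9.54 under progesterone, and PRDM8 6.86, 6.91 and 7.30 beside 6.30, 6.17 and 6.14. In both the progesterone arrays lay below every placebo array. None of the 5 passed the test against placebo (limma adjusted p from 0.138 to 0.179), with differences from -0.83 to -0.72.

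Genes related to the 8, as family members, partners or parts of a shared process, were compared next, from 8 lists of 134 genes. Of these, 83 had a tested probe set, each taken on its brightest. Between progesterone and placebo, limma with adjustment over all 26383 tested probe sets called 1 of the 9305 genes measured this way, the member LPCAT4. It called 0 of the 83. An unadjusted p under 0.05 was found for 10 (12.05%, beside 8.95% of the 9305), of which 8 were higher and 2 lower. In all, 53 of the 83 were lower, or 63.9%, beside 56.2% of the 9305, and the medians were -0.08 and -0.04. Between the combined treatment and progesterone, limma with the same adjustment called 2 of the 9305, the members LPCAT4 and EXOC3L1, and again 0 of the 83. Of the 83, 12 had an unadjusted p under 0.05 (14.5%, beside 11.3% of the 9305). When the 9305 were fitted and adjusted alone, 0 were called in either contrast.

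Of the genes of paraspeckle and nuclear RNA-binding proteins around SFPQ, 6 of 9 were lower and 3 higher under progesterone (median -0.12). HNRNPM, a splicing regulator, differed by -0.38 ± 0.18 and HNRNPH3 by 0.26 ± 0.13. Of the lysophospholipid acyltransferases and phospholipases around LPCAT4, 8 of 11 were lower (median -0.04), among them LCLAT1 (-0.43 ± 0.17) and AGPAT1 (-0.29 ± 0.15), both acyltransferases. Of the CD47 partners and phagocytosis checkpoint genes, 7 of 12 were lower (median -0.05). The integrin subunits ITGAV and ITGB3 lay higher, at 0.78 ± 0.22 and 0.56 ± 0.25, the latter at 0.34 without the third progesterone array. Of the metabotropic glutamate receptors and synaptic leucine-rich repeat genes around ELFN2, 9 of 14 were lower (median -0.07), with SLITRK4 at 0.81 ± 0.37, or 0.40 without the first placebo array, and LRRTM4 at 0.35 ± 0.18.

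Of the exocyst genes, 6 of 12 were lower and 6 higher (median -0.01), and the subunits EXOC5 and EXOC4 lay higher, at 0.66 ± 0.17 and 1.14 ± 0.35, opposite to EXOC3L1. Without the first placebo array EXOC4 stood at 0.63. Of the yippee-like and CTLH ligase genes 7 of 9 were lower (median -0.11), with the ligase subunits GID8 at -0.44 ± 0.17 and RMND5A at 0.49 ± 0.40, or 0.16 without the first placebo array. Of the KCTD and cullin 3 genes 8 of 13 were lower (median -0.05), with KCTD20 at 0.83 ± 0.22 and KCTD8 at 0.54 ± 0.19. Of the doublecortin list 3 genes were tested: MAP1B, a microtubule-associated protein, lay higher at 1.53 ± 0.37, DCX, the founding member, stood at -0.18 ± 0.20, or -0.03 without the third progesterone array, and the median was -0.07. None of these passed, with adjusted p of 0.188 or more.

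Across the array set, the progesterone samples stood apart in ways not limited to these genes. On the second principal component (17.2% of the variance) they lay at -14.1, -46.3 and -54.5 and all 9 others above 0. The first progesterone array, nearest to the others there, had a mean profile of -0.97 over the 8 lead probe sets, close to the other 2. The members were chosen for low values in this group, which favours that closeness. The 3′ minus 5′ log2 signal of the EF1A control ran from -0.37 to -0.31 in the progesterone arrays and from -0.08 to 0.74 in the others, while those of ACTB (0.66 to 1.23 beside 0.11 to 0.90) and GAPDH (0.11 to 0.59 beside 0.34 to 1.11) overlapped. The first arrays of the other 3 groups stood apart on the first component; without them the median over the lead probe sets was -1.09.

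Of the serotonin neuron genes, TPH2, SLC18A2, FEV and GATA3 had mean log2 intensities of 7.31, 10.12, 9.47 and 9.31, while SLC22A3 (6.18), HTR1A (5.07) and LMX1B (3.75) were dimmer than the filter at 6.31; no marker of this list was at the floor on any array. Its 6 tested genes were all lower under progesterone than under placebo (median -0.46) and 0 passed, with 0 at an unadjusted p under 0.05. Below the filter, HTR1A (4.51 under placebo, 5.28 under progesterone) and SLC22A3 (6.17 and 6.33) were higher, and LMX1B (3.82 and 3.67) lower. The summed intensity of the list's 9 measured genes ran from 2328 to 2921 under progesterone and from 2973 to 4222 under placebo. It ran from 3206 to 4368 under estrogen and from 2977 to 3703 under both hormones. The 5 tested ependyma and choroid plexus markers were also all lower (median -0.29). Below the filter, DNAH9 was higher (5.61 under placebo, 6.48 under progesterone) and CFAP126 lower (5.49 and 4.12). The 7 measured genes of this list had summed intensities of 692 to 872, 909 to 972, 787 to 976 and 825 to 1095 in the same order. The neuron, astrocyte, oligodendrocyte, microglia and endothelial lists had medians from -0.12 to -0.0032 and progesterone ranges that overlapped placebo, the 5 tested cerebellar genes a median of 0.17, and the 2 erythroid genes one of 0.68. The part of these differences in the values of the 8 genes was not tested.

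**Figure D4:**
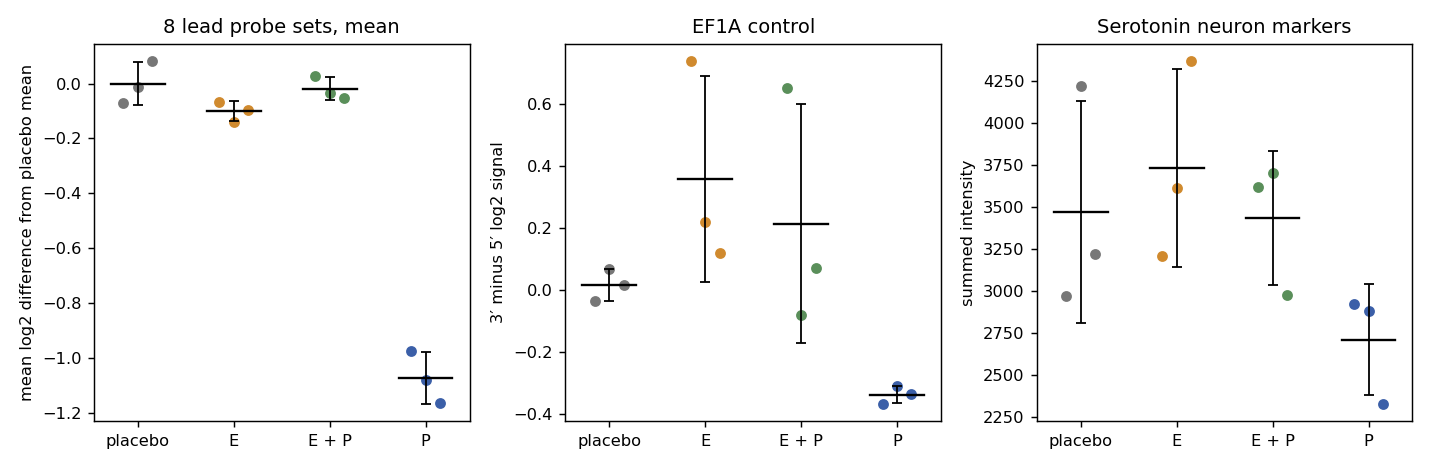
Left, mean log2 difference from the placebo mean over the 8 lead probe sets; middle, 3′ minus 5′ log2 signal of the EF1A control; right, summed intensity of 9 serotonin neuron markers, each with 1 point per monkey, the group mean and 1 SD (n = 3). The progesterone points are lowest in all 3 panels, by a wide margin on the left (-1.16 to -0.97) and a narrow one on the right.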

How the data were processed

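RNA from 12 dorsal raphe blocks was extracted with Trizol and RNeasy columns and labelled with biotin, per the labels. The deposited values are intensities on a linear scale, 1 per probe set, which the authors had scaled per array, since the mean trimmed by 2% at each end came to 200.0 on every one. The sources used here do not name the software.

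After removal of 99 controls, values were raised to a floor at the 5th percentile (4.99), log2 transformed and quantile normalized, since array medians spanned 6.15 to 6.62. The 26383 probe sets whose mean reached the median of all means (6.31) were tested with limma 3.58.1 in R 4.3.3, 1 mean per group over 12 arrays, two-sided, with Benjamini-Hochberg adjustment and a threshold of 0.05. Differences of probe sets below the filter come from the same fit on all probe sets. An exact permutation test of 3 against 3 cannot go below p = 0.1. Precision rests on the number of arrays, and the bounds of a 95% interval lay 0.49 from its estimate at the median.

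Names came from the platform's probe-to-gene table: 24969 probe sets had 1 symbol, 361 several and 27535 none. No symbol was changed through the gene identifiers. Sequences and genomic positions were not used here. Groups and replicate numbers came from the labels, which name no shared batch. From the data alone, deviations from the group means of same-numbered arrays correlated by 0.10 to 0.27 between placebo and combined treatment. Between estrogen and combined treatment they correlated by 0.14 to 0.51, so the numbers were taken to pair these groups, and no others. Between placebo and estrogen the range was 0.02 to 0.28, and between placebo and progesterone -0.24 to -0.11. The values reported come from a fit without a block. Where a block was used, it spanned all 4 groups and so also those not taken as paired.

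The members, gene lists, lead rule and alternatives were chosen with earlier results of these data known. Named besides the members are the 5 genes nearest to their mean profile, the next 5 lower genes by p, and the 2 lowest p of each list. The fit was tested on simulated data. Plots were made in Python 3.11.15 (matplotlib 3.10.9).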

Additional observations from a re-analysis of the deposited data

How the results depend on the processing

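The median over the 8 lead probe sets for progesterone minus placebo stayed between -1.13 and -1.02 when any 1 array was left out; it was -1.15 with median alignment and -0.41 on the brightest probe sets. For combined treatment minus progesterone it ran from 1.01 to 1.11 without 1 array, and was 0.96 on the 4 lead probe sets past a filter at the 75th percentile and 0.28 on the brightest. Against placebo, the combined treatment's median ran from -0.051 to 0.057 without 1 array and was -0.21 under that filter, and estrogen's ran from -0.12 to -0.02 and was -0.38 under that filter, 0.067 on the brightest and -0.14 without the first arrays of placebo, estrogen and combined treatment. The counts called over all probe sets moved more. Progesterone minus placebo gave 35, and 0 with the brightest probe set of each gene or with the arrays of the 2 groups only, 13 without those 3 first arrays, and 5 (without the second placebo array) to 55 (without the third) without 1 array. With the replicate number as a block it gave 20, all higher, so SFPQ, LPCAT4 and CD47 were no longer called; the pairing does not hold for these groups, where 0 of 6 arrays correlated best with their own number. Combined treatment minus progesterone gave 22, and 4 with the 75th percentile filter, 0 with the brightest probe sets, 7 with 2 groups only, 44 with array weights, and 0 (without the second progesterone array) to 42 (without the first placebo array) without 1 array. The block gave 19 there, without EXOC3L1 (limma adjusted p = 0.0982). Since each replicate number has 1 array in each group, the block cannot change a difference or a median, only the SE. The 2 contrasts with 0 calls gave 1 each with no filter and 0 to 1 without 1 array; with the block both stayed at 0, as did combined treatment minus estrogen; the pairing held for combined treatment with placebo and with estrogen, not for estrogen with placebo. With the block the same 6 lead intervals held 0 for combined treatment minus placebo, and that of EXOC3L1 for estrogen minus placebo came to hold 0 (upper bound 0.82). Median alignment ended the calls of SFPQ (-1.51) and CD47 (-1.17) against placebo, although both differences grew, and of EXOC3L1 against progesterone, and added that of YPEL5 against placebo. Leaving out 1 array, SFPQ kept its call against placebo in 6 of 12 fits, LPCAT4 in 4 and CD47 in 3. The cause of these changes was not tested.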
